A study of Mus musculus with 2 samples.

Results

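The Myog-expressing cells of the mouse knee joint at postnatal day 7 were analysed here by single-cell RNA sequencing. They were chosen by rule: a cell had at least 1 Myog UMI (a UMI is 1 counted mRNA molecule), at least 1 UMI of Myod1, Chrna1 or Cdh15, no Ptprc UMI, and less than 1% of its UMIs in the muscle fibre genes Acta1, Ckm, Mylpf and Tnnt3. The rule found 465 cells among the 15174 cells that passed the quality filter, a share of 3.06% (95% exact binomial interval 2.80 to 3.35). The knee joints came from Col12a1 knockout mice, in which the gene of collagen XII, a collagen bound to the surface of fibrils, is disrupted, and from wild-type mice, of both sexes, and were digested for 6 h in 4 mg/mL collagenase. The labels give 2 experiments with 3 libraries per genotype in all, and cells of both genotypes lie in 1 merged matrix, whose barcodes fall into set 1 and set 2. The sources used here give no strain, targeting design or number of animals and give neither the genotype nor the experiment of a set, so knockout was not compared with wild type and the cells count as 1 sample. Cells are not replicates, and no p-value is given. Intervals are 95% intervals for counting error alone.

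Skeletal muscle is built from myoblasts that leave the cell cycle, line up and fuse into multinucleated fibres. The transcription factors MyoD and Myf5 commit a cell to the muscle lineage, and Myogenin, the protein of Myog, then turns on the differentiation programme by binding E-boxes in muscle promoters together with E proteins. In postnatal muscle new myoblasts come from satellite cells, the Pax7-expressing stem cells that lie under the basal lamina of the fibre, and in the young mouse these still add nuclei to growing fibres. Cells with Myog mRNA are the stage between the dividing progenitor and the fibre.

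The Myog-expressing cells were therefore set beside 3 other groups of cells. Satellite cells were the 594 cells with a Pax7 UMI, no Myog or Ptprc UMI and under 1% of UMIs in the 4 fibre genes. Myofibre-like cells were the 228 cells without Ptprc UMIs that had at least 5% of their UMIs in those genes. The last group was all 14709 other cells. The median depth was 11770 UMIs in Myog-expressing cells, 12262 in satellite cells and 3143 in myofibre-like cells, and the whole matrix held 257619292 UMIs in 24203 barcodes. Myog-expressing cells were 2.16% of set 1 (155 of 7160 cells) and 3.87% of set 2 (310 of 8014 cells), and satellite cells were 2.28% of set 1 and 5.38% of set 2. The sets shared 14 barcodes among the filtered cells, and no barcode was a Myog-expressing cell in both.

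Myog lies on the plus strand of chromosome 1, from 134289989 to 134292548 in the mm10 build. Its promoter is printed with those of Chrna1 and Chrng, which encode the alpha and gamma subunits of the muscle acetylcholine receptor. Also printed is that of Tnnt2, which encodes cardiac troponin T, a form that developing skeletal muscle also uses. Myog and Chrna1 are genes of the rule, and Tnnt2 and, to a lesser degree, Chrng were above satellite cells. Genes with larger ratios than Chrng, such as Actc1 and Myh3, are not printed. Each sequence runs 5′ to 3′ from 250 bases before to 50 bases after the RefSeq start in GRCm38.p6, with each E-box (CANNTG, the same on both strands) in capitals. The Tnnt2 sequence is that of the first of its 2 starts in the table.
Myog, chr1:134289754-134290053, plus strand: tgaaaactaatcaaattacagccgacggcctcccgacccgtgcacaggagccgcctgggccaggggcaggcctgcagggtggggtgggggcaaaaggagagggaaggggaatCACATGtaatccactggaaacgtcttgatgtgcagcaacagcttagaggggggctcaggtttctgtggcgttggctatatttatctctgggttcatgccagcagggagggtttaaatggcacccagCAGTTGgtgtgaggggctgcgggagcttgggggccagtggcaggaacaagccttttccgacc
Chrna1, chr2:73580289-73580588, minus strand: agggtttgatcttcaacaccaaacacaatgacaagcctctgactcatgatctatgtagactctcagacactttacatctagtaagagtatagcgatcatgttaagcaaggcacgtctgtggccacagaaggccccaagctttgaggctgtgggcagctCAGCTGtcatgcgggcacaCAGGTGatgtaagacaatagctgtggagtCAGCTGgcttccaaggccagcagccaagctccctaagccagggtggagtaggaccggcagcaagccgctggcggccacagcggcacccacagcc
Chrng, chr1:87205561-87205860, plus strand: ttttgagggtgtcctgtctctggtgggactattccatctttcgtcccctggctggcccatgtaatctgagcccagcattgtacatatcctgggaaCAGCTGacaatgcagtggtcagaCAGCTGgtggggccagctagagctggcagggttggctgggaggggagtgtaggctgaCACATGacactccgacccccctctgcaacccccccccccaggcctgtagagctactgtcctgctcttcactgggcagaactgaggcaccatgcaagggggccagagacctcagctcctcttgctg
Tnnt2, chr1:135836084-135836383, plus strand: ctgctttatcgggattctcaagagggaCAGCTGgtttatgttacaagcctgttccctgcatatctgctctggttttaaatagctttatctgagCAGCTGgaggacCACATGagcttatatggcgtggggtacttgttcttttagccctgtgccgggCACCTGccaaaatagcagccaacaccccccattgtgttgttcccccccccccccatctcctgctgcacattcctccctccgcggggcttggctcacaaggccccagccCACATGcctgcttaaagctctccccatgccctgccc
The Myog promoter held 2 E-boxes, at bases -138 and -12 from the start, and 39.6% of all 32851 promoters in the table held 2 or more. The Chrna1 and Chrng promoters held 3 each and this Tnnt2 promoter held 5, against 17.6% of all promoters with 3 or more and 6.49% with 4 or more. In Chrna1, Chrng and this Tnnt2 promoter, 2 of the E-boxes had the letters CAGCTG, as had 2 or more in 1.90% of all promoters. These were chosen from 21 genes with a promoter in the table and do not stand for the rest. In the 21 genes, 8 had 3 or more E-boxes at some start, among them Ptprc, whose absence was part of the rule. A further 9 had 1 at most, among them Actc1, Myh3, Ky, Gpr50 and 2310043L19Rik. The 3 genes with 2 CAGCTG were Chrna1, Chrng and Tnnt2, all printed here. A gene with several starts was counted by its highest start, while the shares of all promoters are per promoter. The other Tnnt2 start had 2 E-boxes and 0 CAGCTG. A strict form of the MEF2 site was found in none of these windows and in 0.557% of all promoters. Looser forms of the site were not counted. The absence of the strict form therefore does not show that a window, that of Myog included, lacks a MEF2 site. In all, 28 genes were looked up.

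The values that chose the cells are a description. Myog counts per cell ran from 1 to 162 UMIs, with a median of 13 and quartiles of 4 and 30. A single Myog UMI was seen in 50 of the 465 cells, 2 or 3 in 56, 4 to 9 in 93 and 10 or more in 266. Chrna1 was found in 416 cells (89.5%), Myod1, the commitment factor, in 389 (83.7%) and Cdh15, the muscle adhesion molecule M-cadherin, in 307 (66.0%), and 243 cells held all 3. Just outside the rule were 62 cells with Myog but no second marker, at 126 CPM of Myog and 11.98 CPM of Mymk (CPM is a gene's UMIs per 1000000 UMIs of the group), and 12 cells with a Ptprc UMI. At the limit of 1% for the fibre genes, 18 cells lay just inside, between 0.5% and 1%, with 2634 CPM of Myog. A further 24 cells lay outside it, 6 of them between 1% and 2%, with 2242 CPM of Myog, and 18 above 5%, with 55.5 CPM.

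Shares of cells with a UMI depend on depth, so each cell was thinned to 2000 UMIs for comparison, which left out 1 Myog-expressing cell. Myog was then seen in 75.9% of Myog-expressing cells (71.7 to 79.7), in 5.23% of myofibre-like cells and in 0.389% of the 3782 cells with a Ptprc UMI (median depth 8260.5 UMIs before thinning). Those are called blood cells here and should lack Myog, though 12 of them had Myog and a second marker, at 676 CPM of Myog, so the share may overstate the background. Before thinning the Myog shares were 100%, 18.4% and 0.978%. The unthinned shares in Myog-expressing and satellite cells were 64.1% and 4.21% for Mymk, 38.3% and 0.337% for Mymx and 100% and 90.9% for Cdkn1c. Mymk, which encodes the fusion protein Myomaker, was found in 28.9% of Myog-expressing cells (24.8 to 33.2) and in 0.846% of satellite cells. It was found in none of the thinned blood cells, where 3 cells would be a share of 0.0834%. Mymx, which encodes Myomaker's partner Myomixer, was found in 15.9% of Myog-expressing cells and in none of the satellite cells, where 3 cells would be a share of 0.508%. Neither value for 3 cells is an interval limit, and neither limits the share that express the gene. Cdkn1c, which encodes the cell cycle inhibitor p57, was found in 97.2% of Myog-expressing cells, 61.6% of satellite cells, 72.7% of myofibre-like cells and 5.22% of blood cells. Mymk, Mymx and Cdkn1c took no part in the rule, and all were found more often in Myog-expressing cells than in satellite cells.

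**Figure D1:**
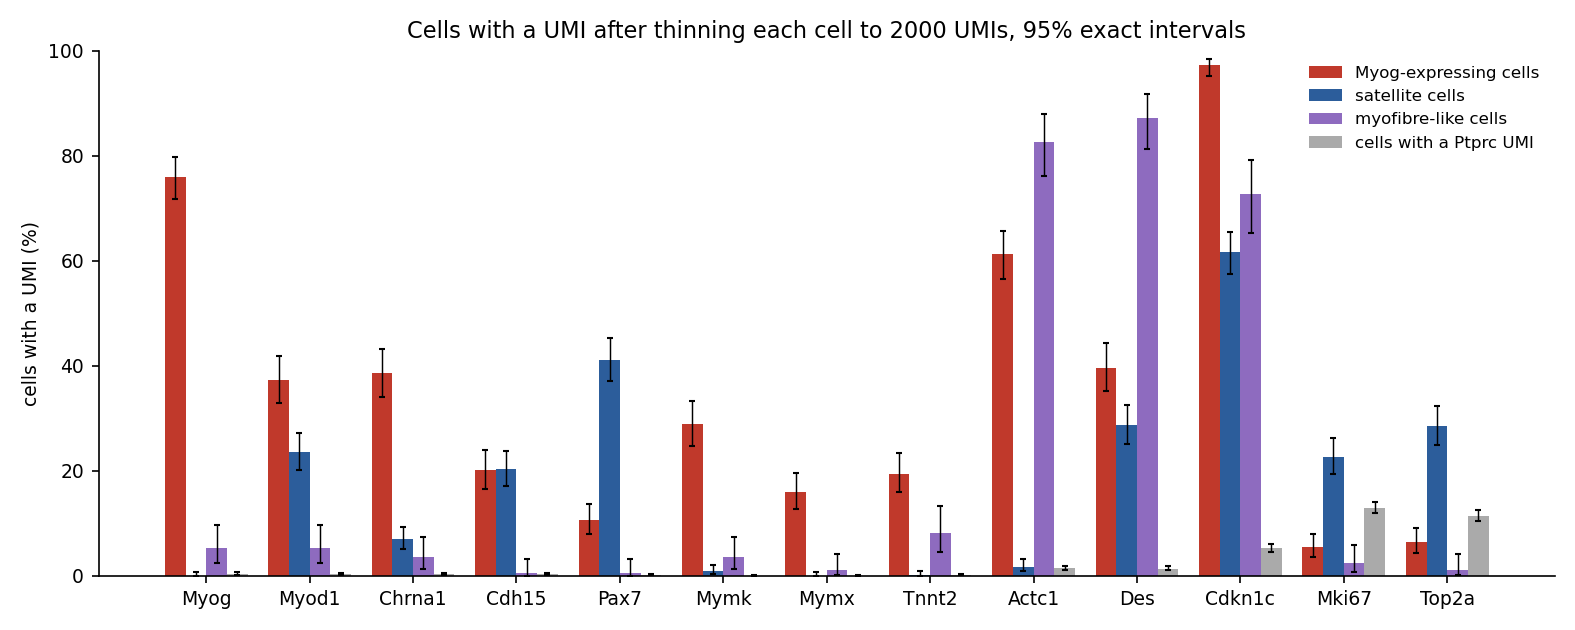
Share of cells (%) with at least 1 UMI of each gene after thinning every cell to 2000 UMIs, in Myog-expressing cells, satellite cells, myofibre-like cells and cells with a Ptprc UMI, with exact binomial intervals as error bars. Mymk was found in 28.9% of Myog-expressing cells and 0.846% of satellite cells, and Top2a in 6.47% and 28.4%. Myog, Myod1, Chrna1, Cdh15 and Pax7 helped to choose the cells.

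The main comparison asks what a myoblast with Myog has and a Pax7-expressing satellite cell does not. A gene was called higher or lower where both groups together had at least 100 UMIs, the ratio of CPM was at least 2 or at most 0.5, its interval excluded 1 and both barcode sets showed the same direction. A gene at or near 0 in one group passes the minimum through the other group alone, so the counts and medians given for lists describe the genes that passed it. The 10 genes used to choose cells were left out. Over satellite cells, 375 of 9927 genes were higher in Myog-expressing cells (3.78%) and 1158 were lower (11.7%), and the median log2 ratio was -0.16. The counts given for lists are to be read beside these shares: a list with a similar share called does not stand apart from all genes. Genes of fusion and contraction were among the highest ratios, and most genes of cell division were lower.

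The largest ratios rested on genes almost absent from satellite cells. Mylk4, which encodes a myosin light chain kinase of striated muscle, had 600 UMIs in Myog-expressing cells and none in satellite cells, so that it was at least 255-fold higher (3 UMIs set for satellite cells as a group). In Myog-expressing cells Tnnt2 was at 231 CPM (set 1) and 154 CPM (set 2), against 0.365 and 0.162 CPM in satellite cells, a ratio of 804 that rests on 2 satellite UMIs (222 to 6645). Mymx was at 107 and 129 CPM in Myog-expressing cells, against 0 and 0.324 CPM in satellite cells, a ratio of 541 (149 to 4478). The call itself asked for the same direction in both sets, so the agreement of the sets is no separate support for these genes.

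Actc1, which encodes the cardiac alpha-actin that developing skeletal muscle uses, was at 1179 and 1315 CPM in the 2 sets of Myog-expressing cells and at 20.4 and 7.28 CPM in satellite cells, 112-fold higher (92.1 to 138). Others among the 12 highest were Myh3, the embryonic myosin heavy chain (65.1-fold, 17.6 to 545), Tnni1, the slow troponin I (63.1-fold), Trim55, the sarcomeric ubiquitin ligase MuRF2 (56.6-fold), Mymk (54.8-fold), Ky (45.1-fold, 15.0 to 222), Tmem182, a muscle membrane protein linked to fusion in mice (40.0-fold), and the orphan receptor gene Gpr50 (33.5-fold). Of the Gpr50 UMIs 24.8% came from 1 cell. The noncoding 2310043L19Rik was 58.7-fold higher, at 19.8 CPM in Myog-expressing cells against 0.336 CPM in satellite cells (19.7 to 288). Dpp6, which encodes an auxiliary subunit of potassium channels, was at 426 CPM in Myog-expressing cells and 23.5 CPM in satellite cells, and was seen in 31.9% and 4.57% of their thinned cells (48.8% and 13.3% unthinned).

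The 12 lowest ratios were of another kind. They included 2410004I01Rik, Tnfrsf8, Fsd1, Gm10457, Gm45866, Btk, A330084C13Rik, Gm45184, Gm17359, Gm11629 and Skap1, and between 43.0% and 99.0% of each gene's satellite cell UMIs came from 1 cell. With the 3 cells richest in a gene left out, a step added after the data were seen, 735 genes remained called lower in place of 1158, and 272 higher in place of 375.

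Of 24 genes of muscle transcription factors and cofactors, 7 were higher and 3 lower, with a median log2 ratio of 0.27 against -0.16 for all genes. Tead4, a TEAD factor, was at 47.5 CPM in Myog-expressing cells and 2.02 CPM in satellite cells, 23.6-fold higher. Rbm24, an RNA-binding protein that steers muscle splicing, was 8.14-fold higher, Mef2c 6.84-fold, Bin1, which shapes the T-tubule membrane, 5.28-fold, Rbm38 3.04-fold, Mef2a 2.87-fold and Six4 2.52-fold. The MEF2 factors act with the MyoD family on muscle genes. Lower were Msc, a repressor of myogenic bHLH factors (4.75-fold), Myf5 (5.15-fold) and Six2 (2.73-fold). Myf5 was at 30.7 and 8.46 CPM in Myog-expressing cells in sets 1 and 2, against 60.5 and 92.2 CPM in satellite cells. Myf6, the fourth member of the MyoD family, had too few UMIs for a call, at 0.716 CPM in Myog-expressing cells and 3.25 CPM in satellite cells, while myofibre-like cells had 99.5 CPM.

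Of 15 genes that restrain the myogenic factors, 5 were lower and 2 higher (median log2 ratio -0.61). Id3, which sequesters E proteins, was at 286 and 223 CPM in the sets of Myog-expressing cells and at 482 and 652 CPM in satellite cells, 2.45-fold lower. Its relatives Id1 (195 CPM in Myog-expressing cells and 208 CPM in satellite cells) and Id2 (77.7 and 118 CPM) were not called. The Notch target genes Hes1 and Heyl were 2.88-fold and 3.73-fold lower, and Hes1 was at 82.0 and 42.5 CPM in the sets of Myog-expressing cells, against 104 and 187 CPM in satellite cells. In Myog-expressing cells 30.7% of the Hes1 UMIs came from 1 cell. Twist1 was 2.33-fold lower, a call lost without its 3 richest cells. Hes6, which opposes Hes1 and promotes differentiation, was 3.46-fold higher, and Sox8 2.61-fold higher.

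In the wider Notch pathway, which keeps satellite cells undifferentiated, 2 of 16 genes were higher and 4 lower (median log2 ratio -0.17). The ligand gene Dll1 was at 36.1 CPM in Myog-expressing cells and 14.9 CPM in satellite cells, 2.42-fold higher. The receptor gene Notch3 was 10.2-fold lower, at 10.3 CPM in Myog-expressing cells and 105 CPM in satellite cells, and Dlk1, a noncanonical ligand gene, 2.57-fold lower. Notch1 was at 71.3 CPM in Myog-expressing cells and 78.8 CPM in satellite cells and was not called, nor were Notch2, Jag1, Jag2 and Rbpj.

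Among 29 satellite cell genes other than Pax7, 11 were lower and 1 higher (median log2 ratio -0.73). Chrdl2, a BMP antagonist gene, was 11.6-fold lower, Calcr, the calcitonin receptor that holds satellite cells quiescent, 8.68-fold, and Vcam1, an adhesion molecule, 4.55-fold. Also lower were, among others, Dlk1, Fgf7 (lost without its 3 richest cells), Heyl, Myf5, Notch3, Spry1 and Tenm4. Megf10, an engulfment receptor that marks satellite cells and myoblasts, was the one higher, at 383 CPM in Myog-expressing cells and 134 CPM in satellite cells (2.85-fold). Pax7, which chose the satellite cells, was at 45.1 CPM in Myog-expressing cells and was found in 143 of them. Several genes stand in more than 1 list.

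Most genes of both cell cycle lists were lower. Of 27 S phase genes, 22 were lower and none higher (median log2 ratio -1.46), as were 25 of 28 genes of G2 and M phase (median log2 ratio -1.46). Top2a, the topoisomerase of dividing cells, was at 116 and 84.8 CPM in the sets of Myog-expressing cells and at 314 and 427 CPM in satellite cells, 4.12-fold lower, and it was found in 6.47% and 28.4% of their thinned cells (17.6% and 42.6% unthinned). Mki67, the proliferation antigen, was 3.36-fold lower, the mitotic kinase gene Aurkb 5.78-fold, the replication genes Cdc45 and Pcna 4.05-fold and 2.69-fold, and Tyms, which makes thymidylate, 3.93-fold. In set 1 alone 9 of 24 G2 and M phase genes were lower (685 of 6410 genes in all), and in set 2 alone 27 of 28 (1023 of 8892). Their summed level was 1347 CPM in Myog-expressing cells and 2337 CPM in satellite cells in set 1, and 868 CPM and 3096 CPM in set 2.

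Of 20 genes of cell cycle exit, 4 were higher and 2 lower (median log2 ratio 0.24, 0.76 in set 1 and 0.18 in set 2), beside 3.78% and 11.7% of all genes. Their summed level was 10566 CPM in Myog-expressing cells and 2652 CPM in satellite cells, and Cdkn1c alone was at 8099 and 898 CPM. It was at 6856 and 8741 CPM in the sets of Myog-expressing cells and at 1151 and 786 CPM in satellite cells, 9.02-fold higher (8.81 to 9.23). The retinoblastoma gene Rb1, which blocks entry into S phase, was 4.05-fold higher, while its relative Rbl1, the gene of p107, was 3.04-fold lower. Btg1 was 2.25-fold and Gadd45a 2.17-fold higher, and the call of Gadd45a was lost without its 3 richest cells. Cdkn2c, the gene of the inhibitor p18, was 3.26-fold lower. Cdkn1a, the gene of p21, just missed the fold, at 364 CPM in Myog-expressing cells and 183 CPM in satellite cells, a ratio of 1.99.

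Among 27 fusion genes, 6 were higher and 2 lower (median log2 ratio 0.08), beside 3.78% and 11.7% of all genes. Besides Mymk, Mymx and Tmem182, these were Cav3, the caveolin of muscle (16.0-fold), Elmo1, an activator of Rac (6.74-fold), and the junction molecule Jam3 (5.01-fold). The adhesion genes Cdh2, for N-cadherin, and Kirrel were 3.44-fold and 3.74-fold lower. The tetraspanin gene Cd9 and the integrin gene Itgb1 were the most abundant of the list, at 367 and 343 CPM in Myog-expressing cells and 400 and 408 CPM in satellite cells, and were not called.

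Of 12 acetylcholine receptor and neuromuscular junction genes, 3 were higher and 1 lower (median log2 ratio 0.36), beside 3.78% and 11.7% of all genes. Chrng, the gene of the embryonic gamma subunit, was at 18.5 CPM in Myog-expressing cells and 3.36 CPM in satellite cells, 5.49-fold higher. The adult epsilon subunit gene Chrne had too few UMIs for a call, at 0.143 CPM in Myog-expressing cells and 0.224 CPM in satellite cells. Dok7, which activates the receptor kinase MuSK, was 17.5-fold higher and Chrnd, the delta subunit gene, 3.20-fold higher. Musk itself (80.0 CPM in Myog-expressing cells and 53.1 CPM in satellite cells) and Rapsn, the receptor's scaffold (44.5 and 64.2 CPM), were not called, and Ncam1 was 2.18-fold lower.

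Of 19 developmental and slow sarcomere genes, 9 had too few UMIs for a call, and of the other 10, 7 were higher and 1 lower (median log2 ratio 2.28). Some, such as Myh3 and Tnnt2 with 2 UMIs each in satellite cells, passed the minimum through Myog-expressing cells alone. Besides Actc1, Tnnt2, Myh3 and Tnni1 these were the perinatal myosin gene Myh8 (7.43-fold), the slow troponin gene Tnnt1 (3.18-fold) and Myl4, an embryonic light chain (2.55-fold, lost without its 3 richest cells). Mybpc1, the slow myosin-binding protein C, was 2.55-fold lower, at 59.4 CPM in Myog-expressing cells and 151 CPM in satellite cells. Of 9 fast and adult sarcomere genes, with the 4 genes of the rule left out, Tpm2 (3.12-fold) and Atp2a1, the calcium pump (9.83-fold), were higher and none was lower. Myl1, a fast light chain, was at 63.8 CPM in Myog-expressing cells, 42.6 CPM in satellite cells and 39239 CPM in myofibre-like cells.

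Z disc and sarcomere assembly genes were higher in 11 of 19 cases and lower in 2 (median log2 ratio 1.42). Unc45b, the chaperone of myosin, was 32.6-fold higher, Lmod2, a thin filament gene, 16.1-fold, Klhl41, a nebulin partner, 10.2-fold, Neb (nebulin) 7.19-fold and Ttn (titin) 6.40-fold. Klhl41 was at 76.6 and 66.4 CPM in the sets of Myog-expressing cells and at 1.09 and 9.38 CPM in satellite cells, where 85.2% of its UMIs came from 1 cell. Fhl1 and Nebl were 2.55-fold and 3.18-fold lower. Des (desmin), an early intermediate filament gene, was at 276 CPM in Myog-expressing cells and 184 CPM in satellite cells and was not called.

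Excitation and calcium handling genes were higher in 8 of 16 cases and lower in none (median log2 ratio 0.90). They included Cacng1, a calcium channel subunit (6.28-fold), Stac3, which couples that channel to the ryanodine receptor (5.41-fold), Srl (4.68-fold) and Jsrp1, a triad protein (2.87-fold). Of 16 dystrophin complex genes, 4 were higher, among them Cav3, and the laminin gene Lama2 was 2.10-fold lower (median log2 ratio 0.17). Dmd, the dystrophin gene, was at 206 CPM in Myog-expressing cells and 327 CPM in satellite cells and was not called. Of 17 energy genes, Aldoa (2.60-fold), Cox8b (12.2-fold), Fabp3 (5.97-fold) and Ppara (5.05-fold) were higher and none was lower (median log2 ratio 0.48).

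**Figure D2:**
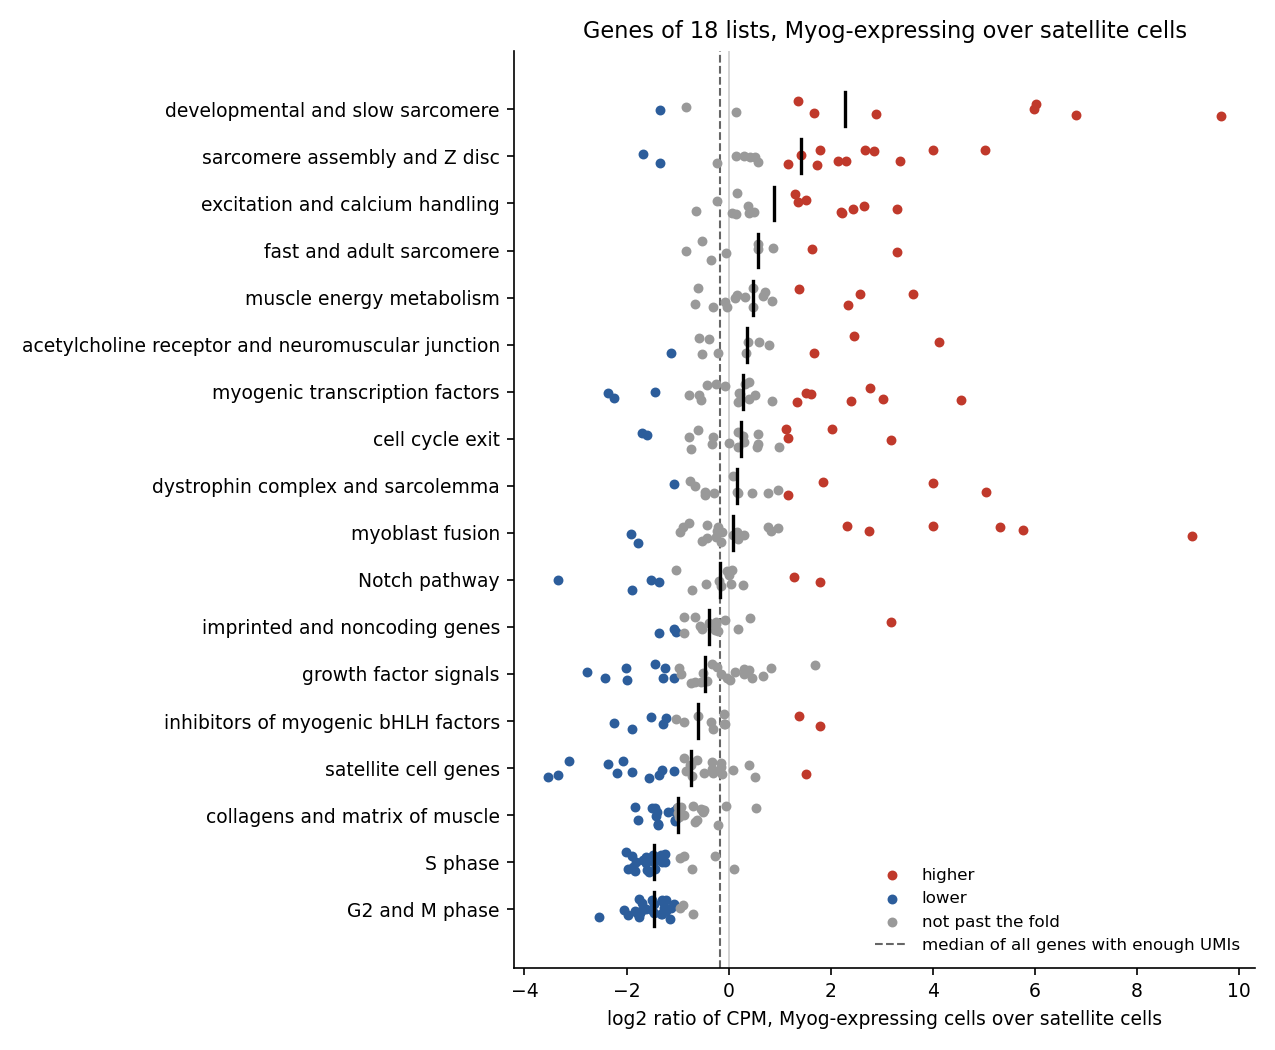
Log2 ratio of CPM in Myog-expressing cells over satellite cells for each gene of 18 lists with enough UMIs, coloured by call, with the list's median as a black bar and the median of all 9927 genes, -0.16, as a dashed line. The medians run from -1.46 for both cell cycle lists to 2.28 for developmental and slow sarcomere genes, and they differ between barcode sets.

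By barcode set, with the UMI minimum applied within the set, the median log2 ratio of developmental and slow sarcomere genes was 1.41 in set 1 and 1.599 in set 2. For G2 and M phase genes it was -0.82 and -1.88, and for fast and adult sarcomere genes 1.36 and 0.31. For fusion genes it was -0.13 and 0.06, which differ in sign.

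Of 28 growth factor genes, 8 were lower and none higher (median log2 ratio -0.46), among them Igfbp2 (6.85-fold), Fst, the gene of the myostatin antagonist follistatin (5.39-fold), Igfbp5 (4.04-fold) and Bmp4 (3.96-fold). Igf2, an imprinted growth factor gene, was at 432 CPM in Myog-expressing cells and 682 CPM in satellite cells and was not called. Of 28 collagen and matrix genes, 13 were lower and none higher (median log2 ratio -0.99), and Col5a1 (3.56-fold), Col5a3 (3.40-fold) and Col3a1 (2.84-fold) had the lowest ratios of those called. Without the 3 richest cells per gene, 9 of these 13 matrix genes and 6 of the 8 growth factor genes remained lower, beside 735 of 1158 among all genes. The summed level of 6 fibroblast markers was 2547 CPM in Myog-expressing cells and 5170 CPM in satellite cells. By set it was 828 and 3434 CPM in Myog-expressing cells and 6431 and 4611 CPM in satellite cells. Of these markers Col1a1, Col1a2, Col3a1 and Dcn are also in the matrix list, so their sum is not independent of the matrix genes. Without cells that had over 1% of their UMIs in the markers of another cell type, 18 of 28 matrix genes were lower. Of 23 growth factor genes 4 were then lower and 1 was higher, beside 1125 and 364 of all 9356 genes. Fst, no longer called, had a log2 ratio of 1.85. The part of fibroblast RNA in these values was not tested. In set 1 alone 20 matrix genes were lower and in set 2 alone 10. Of the growth factor genes 8 of 24 were lower and none higher in set 1 alone, and 4 of 26 were lower and 2 higher in set 2 alone. Among all genes 685 of 6410 were lower and 254 higher in set 1 alone. In set 2 alone 1023 of 8892 were lower and 369 higher.

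Among 17 imprinted and noncoding genes Cdkn1c was higher and Dlk1, H19 and Nnat were lower (median log2 ratio -0.39), though H19 and Nnat lost their calls without their 3 richest cells. H19, the noncoding RNA beside Igf2, was at 192 CPM in Myog-expressing cells, 404 CPM in satellite cells and 8509 CPM in myofibre-like cells, and its direction turned when cells rich in fibre genes were let in, to a log2 ratio of 0.79. Col12a1 itself was at 29.1 CPM in Myog-expressing cells and 42.3 CPM in satellite cells. Of its UMIs in Myog-expressing cells 22.2% came from 1 cell, and after thinning 3.88% of Myog-expressing cells (2.32 to 6.06) and 2.39% of blood cells (1.92 to 2.94) had one (11.8% and 9.81% unthinned), so the share was not told apart from background.

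The Myog-expressing cells were not uniform, and levels of other genes differed with the Myog count of a cell. The bins of Myog count were chosen after the data were seen. Satellite cells had 0.224 CPM of Mymx and Myog-expressing cells had 1.10 CPM at 1 Myog UMI, 2.40 CPM at 2 or 3, 28.9 CPM at 4 to 9 and 200 CPM at 10 or more. Over the same groups Mymk was at 3.59, 16.4, 37.2, 75.6 and 305 CPM. Both fusion genes were thus lowest in the cells with the fewest Myog UMIs and highest in those with the most.

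Actc1 followed the same order, at 11.3 CPM in satellite cells and 36.2, 155, 442 and 2013 CPM along the bins, and Cdkn1c was at 898, 2201, 3564, 6732 and 10749 CPM. The summed level of G2 and M phase genes was 2863 CPM in satellite cells, 1871 CPM at 1 Myog UMI, 2092 CPM at 2 or 3, 1569 CPM at 4 to 9 and 469 CPM at 10 or more. Cells with 10 or more Myog UMIs thus had the lowest level, and the other bins lay between them and satellite cells. Id3 was at 446, 448, 244 and 158 CPM along the bins. Median depth was 12455, 10814.5, 10111 and 12309 UMIs along the bins, and levels at matched depth were not compared. The bins held 50, 56, 93 and 266 cells, and a level is a sum of UMIs, so a cell with many UMIs weighs more. The cells with 1 to 3 Myog UMIs included 3 cells of 77256 to 209681 UMIs that were rich in the endothelial gene Cdh5. Levels of the bins without these cells were not computed.

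**Figure D3:**
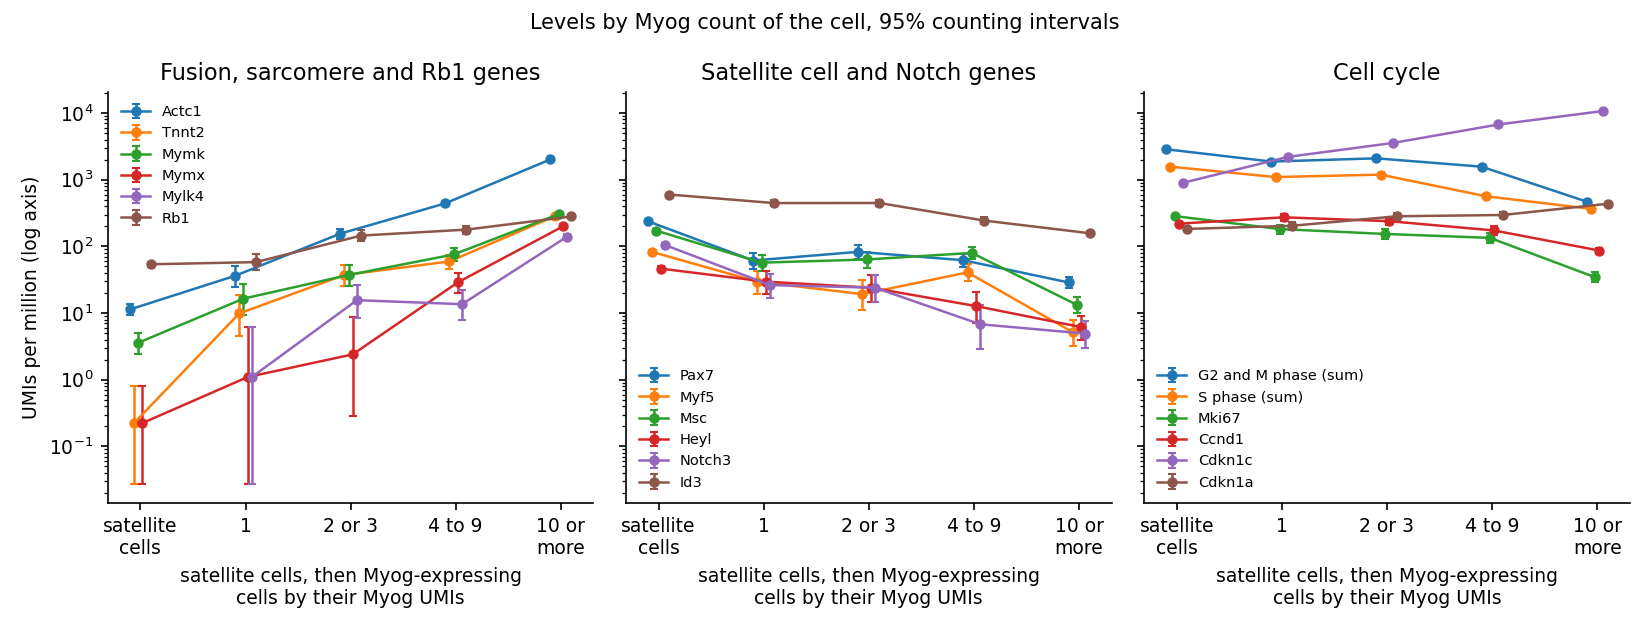
CPM (log axis) of genes and of summed lists in satellite cells and in Myog-expressing cells with 1, 2 or 3, 4 to 9, and 10 or more Myog UMIs, with counting intervals; a gene at 0 UMIs has no point. Mymk reached 305 CPM in cells with 10 or more Myog UMIs, where the summed G2 and M phase genes were at 469 CPM.

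Markers of other cell types also differed along the bins, and the 3 lists given here were highest at 1 Myog UMI. Over the 4 bins the summed fibroblast markers were at 6409, 2185, 3120 and 1589 CPM, the chondrocyte markers at 3815, 39.6, 1090 and 220 CPM and the endothelial markers at 739, 313, 12.7 and 17.96 CPM. Of the 410 UMIs of Cdh5, the endothelial cadherin gene, in Myog-expressing cells, 402 (98.0%) lay in 3 cells with 1 to 3 Myog UMIs and 77256 to 209681 UMIs in all. The endothelial markers summed to 146 CPM in all Myog-expressing cells and 18.7 CPM in satellite cells. Pericyte or smooth muscle markers summed to 1530 and 732 CPM, most of it Acta2, the smooth muscle actin gene that myoblasts also use, at 1438 and 602 CPM. Erythroid markers summed to 8462 CPM in Myog-expressing cells and 11826 CPM in satellite cells, and chondrocyte markers to 815 and 1371 CPM. Cdh5 was named after its values were seen. In total, 38 Myog-expressing cells (8.17%), 59 satellite cells (9.93%) and 52 myofibre-like cells (22.8%) had over 1% of their UMIs in markers of another cell type. In Myog-expressing cells these were mainly erythroid (19 cells) and fibroblast markers (17 cells), and the part of mixed droplets in these values was not tested. Markers of macrophages (6.30 CPM), B cells (4.58 CPM) and T or NK cells (0.143 CPM) were near 0, with 1 of 6, 1 of 5 and 4 of 5 markers at 0, which were C1qa, Igll1, Cd3e, Cd3g, Nkg7 and Trbc2. Neutrophil markers summed to 90.6 CPM in Myog-expressing cells and 106 CPM in satellite cells. The rule left out cells with a Ptprc UMI, so low levels of blood cell markers are no separate support for the choice of cells. Without the cells over 1%, 364 genes were higher and 1125 lower than in satellite cells.

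Ranked instead by their share of UMIs in the 4 fibre genes, the cells fell into 3 groups of 155, called low, middle and high, with shares up to 0.0152%, up to 0.0718% and up to 0.944%. Blood cells, which should lack the fibre genes, had a median share of 0.0126% (0.00591% in set 1 and 0.0269% in set 2). The border between the low and the middle group thus lay near that background. The part of stray UMIs, depth and barcode set in this split was not tested. From the low to the high group, Tnnt2 was at 22.2, 63.3 and 482 CPM, Tnni1 at 3.10, 7.04 and 193 CPM and Cav3 at 7.98, 14.9 and 165 CPM. Ttn was at 123, 181 and 818 CPM and Mef2c at 50.1, 62.9 and 221 CPM. Since the groups were ranked on sarcomere genes, this order of other sarcomere genes is a description. Mymk was at 86.9, 207 and 299 CPM. Dpp6 was at 161, 290 and 862 CPM over the same groups.

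G2 and M phase genes summed to 1733, 1009 and 329 CPM from the low to the high group, a ratio of high to low of 0.190, which was 0.0688 in set 1 alone and 0.338 in set 2 alone. S phase genes summed to 761, 612 and 398 CPM. Cdkn1c was at 5764, 7858 and 10808 CPM, and Cdkn1a at 279, 174 and 676 CPM. In the 6 cells just beyond the limit on fibre genes, Cdkn1c was at 13843 CPM, Cdkn1a at 2026 CPM, Tnnt2 at 2471 CPM, Cav3 at 2444 CPM and Actc1 at 4160 CPM, each above the high group. Tnnt2 then stood at 55.0 CPM and Cdkn1c at 1102 CPM in myofibre-like cells, below both groups around the limit.

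**Figure D4:**
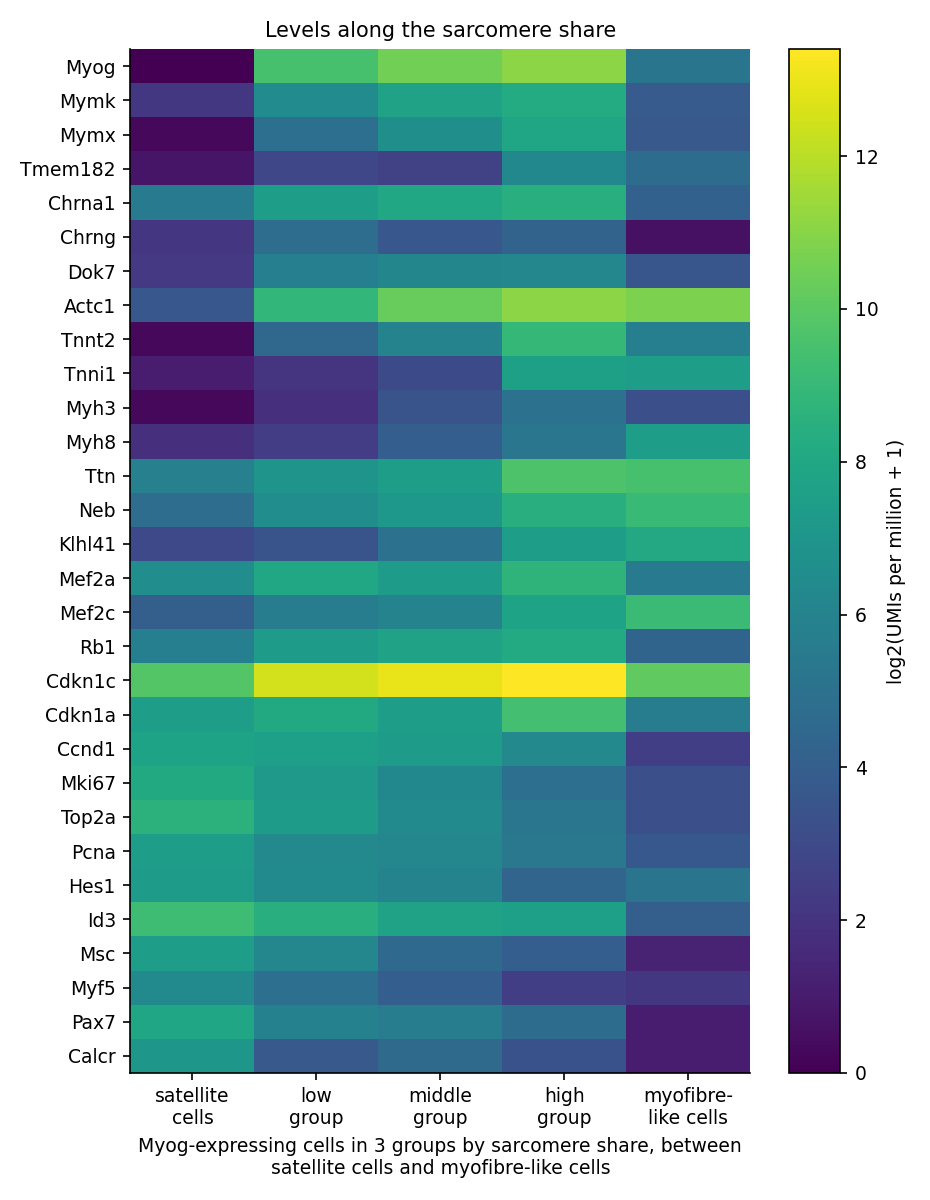
Level of 30 genes as log2(CPM + 1) in satellite cells, in the low, middle and high group of Myog-expressing cells by their share of UMIs in 4 fibre genes (155 cells each), and in myofibre-like cells. Tnnt2 is at 482 CPM in the high group and 55.0 CPM in myofibre-like cells, and Pax7, Msc and Top2a are lower in each group from left to right.

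Pax7 and Myog were seen together in 143 cells, and 322 cells had no Pax7 UMI. Top2a was at 173 CPM in cells with both and 51.4 CPM in those without Pax7, and Calcr at 31.2 and 6.95 CPM. Myf5 was at 32.4 and 6.73 CPM over both sets, at 69.4 and 5.55 CPM in set 1 and at 10.7 and 7.29 CPM in set 2, so most of the gap was in set 1. Cells with both had 130 CPM of Mymk and 5718 CPM of Cdkn1c, against 234 and 9451 CPM without Pax7. Notch3 was at 12.3 CPM with Pax7 and 9.20 CPM without it, below the 105 CPM of satellite cells in either case. Hes1 was at 47.8 CPM with Pax7 (39.7 to 57.2) and 60.6 CPM without it (53.6 to 68.2), against 161 CPM in satellite cells. Dll1 was at 40.3 CPM (32.9 to 49.0) and 33.7 CPM (28.5 to 39.5), against 14.9 CPM in satellite cells. For both genes the intervals with and without Pax7 overlapped. The sets differed for Hes1 (35.3 and 112 CPM with and without Pax7 in set 1, 55.2 and 35.8 CPM in set 2). Matrix genes summed to 5317 CPM with Pax7 and 6955 CPM without it. Markers of other cell types moved with this split, with chondrocyte markers at 1618 and 359 CPM, fibroblast markers at 1062 and 3390 CPM and endothelial markers at 230 and 98.9 CPM, and their part in these values was not tested. The median depth was 13146 UMIs with Pax7 and 11151 without.

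Against myofibre-like cells the whole scale was shifted. The 4 fibre genes took a median of 14.003% of a myofibre-like cell's UMIs. The median number of genes was 869 in myofibre-like cells and 3085 in Myog-expressing cells. The cause of the shift was not tested. Of 7594 genes, 5105 were higher in Myog-expressing cells (67.2%) and 679 lower (8.94%), with a median log2 ratio of 1.96. Scaled by the median ratio of the genes, a shift of 1.91 on the log2 scale, 2210 were higher and 2349 lower. Changes are best read against that shift. The 8 highest rested on 1 or 2 UMIs in myofibre-like cells. Megf10 was at 383 CPM in Myog-expressing cells and 0.505 CPM in myofibre-like cells, a ratio of 758 (136 to 29940). Dpp6 had a ratio of 422 (117 to 3488), Prune2 of 310 (85.8 to 2565) and Sema6a of 304 (54.4 to 12003). The catenin gene Ctnna2 had a ratio of 256 (45.9 to 10133) and the potassium channel gene Kcnk13 of 246 (44.1 to 9741). The sodium-calcium exchanger gene Slc24a3 had a ratio of 181 (49.96 to 1495) and the copper transporter gene Atp7a of 173 (30.9 to 6841).

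The lowest ratios included genes of the mature contractile apparatus and of glycolysis. Tnnc2, the fast troponin C, was 920-fold lower in Myog-expressing cells, at 41.9 CPM against 38575 CPM in myofibre-like cells, and Tcap, the titin cap, 1177-fold lower. Pgam2, a glycolytic enzyme of muscle, was 1221-fold lower, and Tceal7 and Myoz2 were 856-fold and 765-fold lower. Ppp1r27 was at 0.286 CPM in Myog-expressing cells and 390 CPM in myofibre-like cells, a ratio of 0.000734 from 2 UMIs (8.88e-05 to 0.00266). Tmod4, which caps thin filaments, had a ratio of 0.000757 from 2 UMIs (9.15e-05 to 0.00274) and Ppp1r3a, a glycogen-targeting subunit gene, of 0.00138 from 1 UMI (3.48e-05 to 0.00779). All 15 fast and adult sarcomere genes were lower (median log2 ratio -7.91), as were 10 of 16 developmental ones, and 17 of 22 energy genes. Tnnt2 was 3.27-fold higher, a log2 ratio of 1.71 that lies below the shift of 1.91, so it was not higher relative to the median gene. Actc1 was not called, at 1269 CPM in Myog-expressing cells and 1754 CPM in myofibre-like cells. Mymk was 14.4-fold and Mymx 9.62-fold higher, and all 22 G2 and M phase genes were higher, at a median log2 ratio of 4.51.

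Set against all 14709 other cells of the joint, 1696 of 16890 genes were higher (10%) and 4365 lower (25.8%), with a median log2 ratio of -0.20. Mymk (302-fold), Gpr50 (196-fold), Mymx (174-fold), 2310043L19Rik (153-fold), Mylk4 (117-fold) and Trim55 (103-fold) had the highest ratios. Next came Gm28653 (101-fold), Gm45159 (95.7-fold), which overlaps Dlg2 on the same strand, Ovol3 (87.7-fold) and Tnnt2 (86.8-fold). In this setting 15 of 30 genes of the muscle transcription factor list, which also holds genes of other kinds, were higher, among them Bin1, Rbm24, Myf5 and Six4. So were 11 of 17 dystrophin complex genes and 11 of 18 acetylcholine receptor and junction genes. The cell cycle lists had median log2 ratios of -0.22 for G2 and M phase and -0.23 for S phase, with 0 of 28 G2 and M phase genes higher and 1 lower, and 2 of 27 S phase genes higher.

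Gm28653, a noncoding gene on the plus strand of chromosome 1 from 20669882 to 20684298, was among the most abundant of these, at 598 and 443 CPM in the sets of Myog-expressing cells, 61.6 and 58.6 CPM in satellite cells and 3.53 CPM over both sets in myofibre-like cells. Its annotated span contains miR-206 and miR-133b, microRNAs of skeletal muscle, so their main arms are printed from RefSeq with the seed (bases 2 to 8) in capitals. The seeds differ.
mmu-miR-206-3p: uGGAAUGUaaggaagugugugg
mmu-miR-133b-3p: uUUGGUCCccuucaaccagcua
The mature microRNAs were not measured by this assay. Without its 3 richest cells the call of Gm28653 held against satellite cells.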

How the data were processed

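Single-cell RNA sequencing of postnatal day 7 knee joints gave 1 deposited matrix of UMI counts for 32285 genes and 24203 barcodes. The deposited counts were made by the authors with Cell Ranger 7.0.0 on mm10, per the submitters' processing notes, from 10x 3' libraries, per the labels' protocols. No source used here ties the 2 barcode sets to a genotype, experiment or library, so no comparison of knockout with wild type was made.

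The quality filter asked for at least 500 genes and 1000 UMIs per cell, and for a mitochondrial share of 10% or less. UMIs were summed per group of cells and given as CPM with exact Poisson intervals, ratios with exact conditional binomial intervals, and shares with Clopper-Pearson intervals. A group at 0 was set to 3 UMIs per group for a lower bound. These intervals cover counting error only, so they are narrower than the spread between animals, which could not be measured. The members of the group of cells and all 18 gene lists were chosen with earlier results of these data known. Genes were named by rule: the genes of the selection, Col12a1, the 12 highest and 12 lowest ratios over satellite cells, the 8 and 8 over myofibre-like cells, the 10 highest over all other cells, up to 4 highest and 3 lowest per list, and the 2 most abundant per list. Genes named beyond it as members of a pathway were chosen after their values were seen. A few genes that the rule names are not reported here. Doublets were not removed: Scrublet's automatic threshold called 3 of 7160 and 1 of 8014 cells and so had not worked, and leaving out the highest 6% of its scores is an alternative. On simulated counts 100% of 200 changed genes were recovered over satellite cells, with 1 unchanged gene called of 10015 tested. The planted changes were larger than the 2-fold cut and lay in genes with at least 200 UMIs in satellite cells. Counts were drawn with counting error alone, so the simulation does not show how often calls on real cells are wrong. Alternatives covered the cell filter, the rule for the cells, scaling, depth and the barcode sets. Gene coordinates come from GENCODE M21 and sequences from RefSeq on GRCm38.p6. Python 3.11.15, numpy 2.4.6, scipy 1.17.1, pandas 2.3.3, scanpy 1.11.5 and matplotlib 3.10.9 were used.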

Additional observations from a re-analysis of the deposited data

How the results depend on the processing

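The Myog-expressing share of filtered cells was 3.06%. It was 3.52% with at least 1000 genes and 2000 UMIs, 2.70% with at least 200 genes and 500 UMIs, 2.73% with at least 2 Myog UMIs, 2.66% with 2 second markers and 3.47% with none asked for. Without one or the other barcode set it lay between 2.16% and 3.87%, with 155 cells in set 1. With at least 10 Myog UMIs, an alternative added after seeing the data, 266 cells (1.75%) remained and 1933 genes were lower than in satellite cells. In set 1 alone 685 were lower, and 2623 genes were higher than in myofibre-like cells. Without the 3 richest cells per gene, also added after seeing the data, 735 were lower than in satellite cells. With no minimum of UMIs per gene, 907 genes were higher and 1981 lower than in satellite cells, and 8167 higher and 1196 lower than in myofibre-like cells. Thinned to 2000 UMIs, the counts were 129 and 341, and 872 and 279, since fewer UMIs were left. Scaled by the median ratio, 2210 genes were higher and 2349 lower than in myofibre-like cells. Between the high and the low group by share of fibre genes, the G2 and M phase ratio ran between 0.0688 and 0.338 and the developmental sarcomere ratio reached 5.88 when a barcode set was left out, and the S phase ratio was 0.314 with fixed bounds. Thinned to 5000 UMIs, 89.8% of Myog-expressing cells had a Myog UMI. The log2 ratio over satellite cells changed sign for H19 (0.79 with no limit on fibre genes), Fst (1.85 without cells over 1% in markers of another type), and A330084C13Rik (1.94), Gm10457 (0.35), Gm11629 (1.67) and Skap1 (2.16) without their 3 richest cells. The cause was not tested. Of 130 named genes, 100 were called over satellite cells. Of these 100, 55 were no longer called after thinning, 44 without set 2 and 13 without set 1, in the same direction. No paired analysis was possible because no file ties cells to labelled replicates. The medians of up to 8 of the 18 lists moved under an alternative: over all alternatives the median log2 ratio over satellite cells lay between 0.70 and 3.68 for developmental and slow sarcomere genes, 0.19 and 4.17 for fast and adult sarcomere genes, -2.72 and -0.82 for G2 and M phase genes, -2.39 and -1.30 for S phase genes, and -0.13 and 0.24 for fusion genes. Depth limits low genes: a gene with under 100 UMIs in both groups together was not called.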
